A study of Mus musculus with 18 samples.

Results

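The transcriptomes of B16F10 melanomas that had been injected with a manganese metal-organic framework were compared with those of melanomas that had not. Of 18 tumors, the 9 whose label names the framework NKMOF-101-[Mn] form one side, and the other 9 form the other side. B16F10 is a pigmented melanoma cell line of C57BL/6 mice, grown here under the skin of the flank of female mice. Intratumoral injections began on day 6, at about 50 mm3, and were repeated every 2 days. Tumors were taken 48 h after the last injection.

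Each side held 3 groups of 3 tumors. The framework side comprised the empty framework (NKMOF-101-[Mn]), the framework loaded with the ribozyme PS473 (PS473@NKMOF-101-[Mn]) and the framework loaded with M5, a catalytically inactive mutant of the ribozyme (M5@NKMOF-101-[Mn]). The other side comprised PBS, the ribozyme alone (Free PS473) and the ribozyme on cationic polymers (PS473@CPs). All 18 tumors therefore grew from the same line and were injected. PS473 was present on each side, in PS473@NKMOF-101-[Mn] on one and in both Free PS473 and PS473@CPs on the other. Fewer framework tumors than others therefore received it. M5 was given only in the framework and the polymers only outside it. The framework, these cargoes and the unequal share of PS473 cannot be told apart in the comparison of sides. The labels of the 3 PS473@NKMOF-101-[Mn] tumors spell the framework with another number, and their shared treatment text gives the name used here. No source used here says that each replicate was a separate mouse, so the p values measure the spread between these tumors.

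Manganese ions are known to sensitize the cGAS-STING pathway, in which cGAS senses DNA in the cytosol and the adaptor STING passes the signal on to interferon. Secreted type I interferon, and interferon gamma from lymphocytes, act on a large set of interferon-stimulated genes, among them guanylate-binding GTPases, antiviral effectors and the machinery that presents peptides on MHC molecules. PD-L1, encoded by Cd274, is itself such a gene, and its mRNA is what PS473, a Pistol ribozyme, was designed to cleave.

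The ribozyme sequences are shown because the loaded framework groups are named for them. PS473 was first designed with a short substrate-binding stem, and after variants of other stem lengths had been screened the study used the name PS473 for the variant PS473-16. The labels of the tumors name PS473 and M5 without a sequence, so which bases were injected is not known from them. All 3 are given as the study lists them, at 52 bases for the first design, 58 for M5 and 76 for PS473-16. The listed PS473-16 is not the first design with bases added at its end, since an inner stretch occurs in it again. Whether it is to be read as printed is not known. Over the first 52 positions M5 differed from the first design by 2 substitutions, G40U and C41A, counted from 1 at the 5′ end with the base of PS473 first. Capitals mark these positions in each sequence.
PS473-16: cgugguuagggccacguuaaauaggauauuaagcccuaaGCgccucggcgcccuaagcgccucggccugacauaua
PS473, first design: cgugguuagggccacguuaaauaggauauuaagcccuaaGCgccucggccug
M5: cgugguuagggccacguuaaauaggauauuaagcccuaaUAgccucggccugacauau

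Depth, recovered from the steps between low values, was 17212000 to 23647000 fragments in framework tumors and 19504000 to 28401000 in the others. Melanocyte genes were abundant in all 18 tumors, with Dct, an enzyme of melanin synthesis, between 2087 and 3416 FPKM (fragments per 1000 bases of gene and 1000000 fragments). Skin entered unevenly: the basal keratin Krt14 was above 0 in 13 tumors and reached 375 FPKM in framework tumors and 2058 FPKM in the others. The mean log2(FPKM + 1) over a list of skin epithelium genes ran from 0.18 to 4.52 on the framework side and from 0.18 to 5.63 on the other side. Of the leukocyte genes, Ptprc, which encodes the pan-leukocyte protein CD45, was between 0.745 and 6.12 FPKM. The macrophage marker Cd68 averaged 31.5 FPKM in framework tumors and 20.3 FPKM in the others.

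Framework tumors had higher mean levels of interferon-stimulated and MHC genes, and no gene passed the test between the sides. At an adjusted p under 0.05, 0 of 12357 genes passed (limma with Benjamini-Hochberg adjustment, smallest adjusted p 0.900), a background of 0%. At an unadjusted p under 0.05, 362 genes were higher (2.93% of those tested) and 202 lower (1.63%), together 564 (4.56%). In 0 genes did the 9 framework tumors lie wholly above or wholly below the other 9, again 0% in each direction. The median difference over all genes was -0.01 on the log2 scale. A difference here is the mean of the 3 framework groups minus the mean of the 3 other groups in log2(FPKM + 1). This scale understates the fold of low genes. Each difference is given with its limma standard error. That error and the limma p rest on the spread between tumors within groups and leave out the spread between groups of a side.

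Genes with the smallest p among those with a higher mean are given as not passing. Rnf115, a ubiquitin ligase, had the smallest p of these. It ran from 9.90 through a median of 11.3 to 12.7 FPKM in framework tumors and from 8.36 through 9.79 to 10.7 FPKM in the others, and 6 framework tumors lay above every other tumor. Its difference was 0.21 ± 0.05 (SE), with a two-sided exact permutation p of 0.000576 over all splits of 9 and 9 tumors and an adjusted p of 0.900 in limma. Since these genes were picked for a small p from 12357, such an exact p is a description of the gene and is not adjusted for that choice.

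G6pc3, a glucose-6-phosphatase subunit, had a difference of 0.18 ± 0.05, and the membrane protein gene Tmem168 one of 0.22 ± 0.06. Mov10, an RNA helicase that restricts retroelements, stood 0.44 ± 0.12 higher in mean, Nub1, a regulator of the ubiquitin-like protein NEDD8, 0.27 ± 0.08 and Nceh1, a cholesterol ester hydrolase, 0.21 ± 0.06. The unnamed transcript 4933412E12Rik differed by 0.49 ± 0.14. Tgtp2, an interferon-induced GTPase, and H2-DMb1, of antigen presentation, also belong to this group. Their two-sided exact permutation p values were 0.0150 and 0.00481.

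Interferon-stimulated genes had a higher mean in framework tumors in all 80 members tested, of 88 listed and 86 in the table, with Isg20 at a difference of 0.00 that turned negative in 15 of the 37 alternatives, array weights among them. The median difference was 0.43, with the middle of the list between 0.30 and 0.59, against -0.01 over all genes. None of the 80 passed the adjusted test, and 40 had an unadjusted p under 0.05 in this direction, against the background of 2.93%. These genes respond together, so the 40 are not 40 separate observations.

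The interferon-induced GTPases, which act in defence against intracellular microbes, showed the widest gap. All 13 tested had a higher mean in framework tumors, by 0.61 to 0.93 with a median of 0.80. All 13 had an unadjusted p under 0.05, against 2.93% of all genes. Irgm2 ran from 14.5 through 26.8 to 67.3 FPKM in framework tumors and from 5.89 through 13.1 to 37.7 FPKM in the others, a difference of 0.92 ± 0.27. All 9 framework tumors exceeded the median of the others for this gene, and 1 exceeded every other tumor. The lowest Irgm2 values were those of the Free PS473 tumors, at 5.89, 6.23 and 11.9 FPKM. The highest belonged to PS473@NKMOF-101-[Mn] replicate 2 at 67.3 FPKM and PS473@CPs replicate 3 at 37.7 FPKM, so the sides overlapped between 14.5 and 37.7 FPKM. Irgm1 differed by 0.73 ± 0.21.

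Tgtp2 ran from 15.8 through 27.2 to 64.0 FPKM against 6.04 through 15.4 to 33.1 FPKM, a difference of 0.84 ± 0.23. It and Tgtp1 are nearly identical copies on chromosome 11, and how reads shared between them were divided is not given in the sources used here, so their separate values are uncertain.

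**Figure D1:**
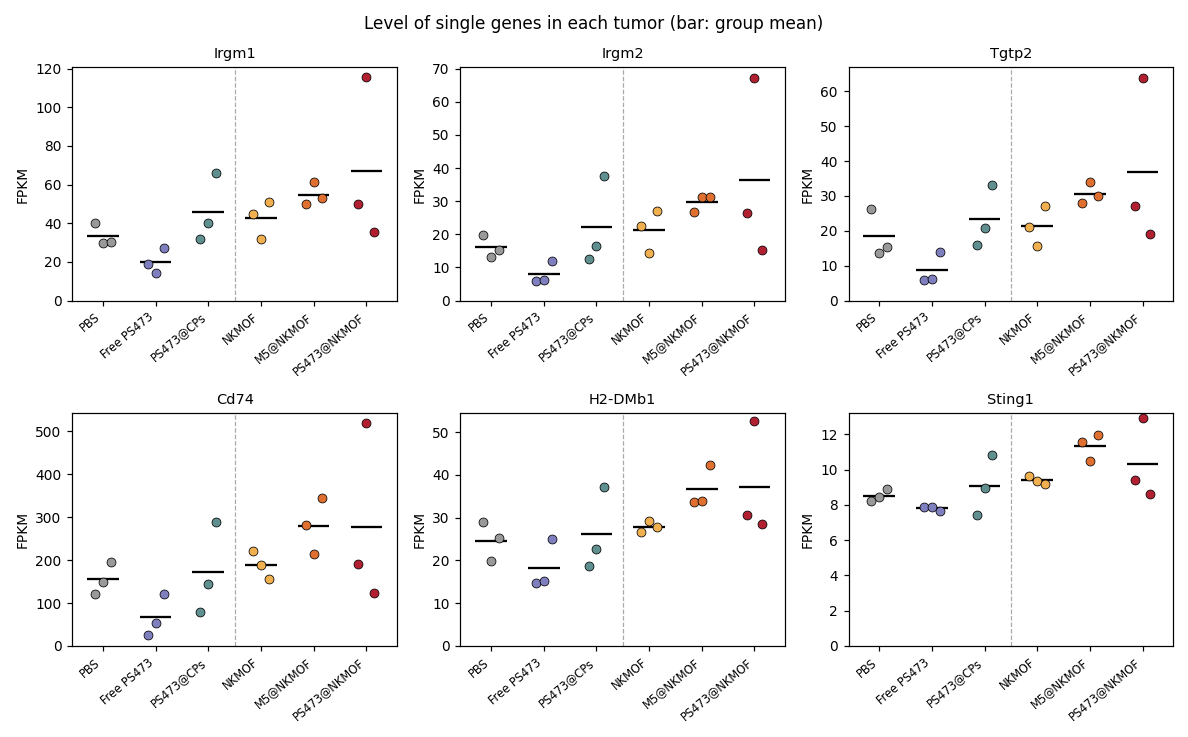
FPKM of 6 genes in each of the 18 tumors, by group; the dashed line parts the 9 other tumors (left) from the 9 framework tumors (right), and bars are group means of 3. For Irgm2 the Free PS473 tumors sit lowest, at 5.89 to 11.9 FPKM, and PS473@NKMOF-101-[Mn] replicate 2 highest, at 67.3 FPKM.

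By role, the 8 transcription factors and regulators had a median difference of 0.39 with 3 at an unadjusted p under 0.05. The 20 antiviral effectors tested had one of 0.30 with 4. The share over all genes was 2.93%. Isg15, a ubiquitin-like antiviral protein, ran from 19.2 through 31.2 to 77.2 FPKM in framework tumors and from 7.41 through 24.6 to 52.2 FPKM in the others. Its difference was 0.39 ± 0.29 (exact permutation p = 0.242, two-sided). Isg20, an exonuclease, differed by 0.00 ± 0.20.

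The interferon-induced chemokines were less even. Cxcl10, which draws activated T cells, was abundant everywhere, from 92.3 through 170 to 288 FPKM in framework tumors and from 106 through 145 to 283 FPKM in the others, with a difference of 0.10 ± 0.17 (exact permutation p = 0.620, two-sided). Ccl5 and Cxcl9 differed by 0.53 ± 0.31 and 0.58 ± 0.36. These 3 were the ones tested of 4 listed. The mean over the 4 was 3.28 in Free PS473, 3.35 in PBS and 3.96 in PS473@CPs. On the framework side it was 4.00 in the empty framework and below the polymers with M5 (3.73) and with PS473 (3.80). The interferons themselves were below the expression limit. Ifnb1 was at most 0.210 FPKM in any tumor, and Ifng had medians of 0.271 FPKM in framework tumors and 0.233 FPKM in the others.

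Promoters of these genes are shown because interferon acts through short elements in them. Promoter windows of RefSeq (build GRCm38.p6, 250 bases before to 50 after the start) were found for 59 of the 80 genes. The interferon-stimulated response element, searched as GAAANNGAAA on both strands (TTTCNNTTTC on the other), was present in 28 of the 59 (47.5%) and in 3.66% of 9214 tested genes with a window. The gamma-activated sequence, searched as TTCNNNGAA, which is its own reverse complement, was present in 15 (25.4%) against 8.06%. Both motifs were present in the windows of 9 genes. The median difference was 0.44 in the 28 genes with the response element and 0.42 in the 31 without it. In the windows below the response element is in capitals, on the strand of the gene. The Irgm1 window holds a further match that overlaps the end of the marked one and is not in capitals.
Tgtp2 (chr11:49064248-49064307, minus strand): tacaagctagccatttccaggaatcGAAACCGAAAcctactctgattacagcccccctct
Tgtp1 (chr11:48992289-48992348, minus strand): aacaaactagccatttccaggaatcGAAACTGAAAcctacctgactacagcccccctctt
Irgm2 (chr11:58214888-58214947, plus strand): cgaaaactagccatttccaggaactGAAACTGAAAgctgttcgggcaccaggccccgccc
Irgm1 (chr11:48871421-48871475, minus strand): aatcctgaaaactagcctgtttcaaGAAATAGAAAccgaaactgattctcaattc
Gbp7 (chr3:142530258-142530317, plus strand): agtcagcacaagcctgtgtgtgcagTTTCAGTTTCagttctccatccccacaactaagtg

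The interferon difference was not spread evenly over the groups. The mean log2(FPKM + 1) of the list was 2.57 ± 0.40 (SD, n = 3) in Free PS473, 3.09 ± 0.18 in PBS and 3.33 ± 0.46 in PS473@CPs. On the framework side it was 3.22 ± 0.26 in the empty framework, 3.49 ± 0.03 with M5 and 3.58 ± 0.74 with PS473. The empty framework was thus below the polymers and close to PBS, and the Free PS473 tumors stood lowest.

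Pair by pair, the empty framework was higher than Free PS473 in 79 of 80 genes (median 0.58), higher than PBS in 62 (median 0.09) and higher than PS473@CPs in 24 (median -0.08). With M5 the corresponding counts were 80, 78 and 68. PS473 in the framework was higher than PS473 on polymers in 70 of 80 genes, with a median of 0.29. These 9 pairs reuse the same tumors and are given side by side without a test.

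Without the Free PS473 group the median of the interferon-stimulated genes was 0.23, 75 of 80 were above 0, and 0 of the 80 had an unadjusted p under 0.05. Without the M5@NKMOF-101-[Mn] group 11 of the 80 did, and without PS473@NKMOF-101-[Mn] replicate 2 there were 27 and the median was 0.31. Leaving out single tumors in turn gave 23 (without PS473@CPs replicate 1) to 61 (without PS473@NKMOF-101-[Mn] replicate 3) of the 80, with 26 without Free PS473 replicate 2. The count over all 12357 genes moved too, from 362 higher to 188 without the Free PS473 group, 125 without the M5 group and 230 without PS473@NKMOF-101-[Mn] replicate 2. It was 219, 525 and 416 in the last settings named. These counts also stand behind the same settings in the lists below. Among the 9 tumors with little skin (a skin score under 1, 5 framework and 4 others, an alternative chosen after seeing the data), the median of the 80 was 0.33. In this setting PBS, PS473@CPs and NKMOF-101-[Mn] were each represented by a single tumor (replicates 1, 1 and 2). Its differences lean on those tumors, and its counts of genes at a p are not given.

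**Figure D2:**
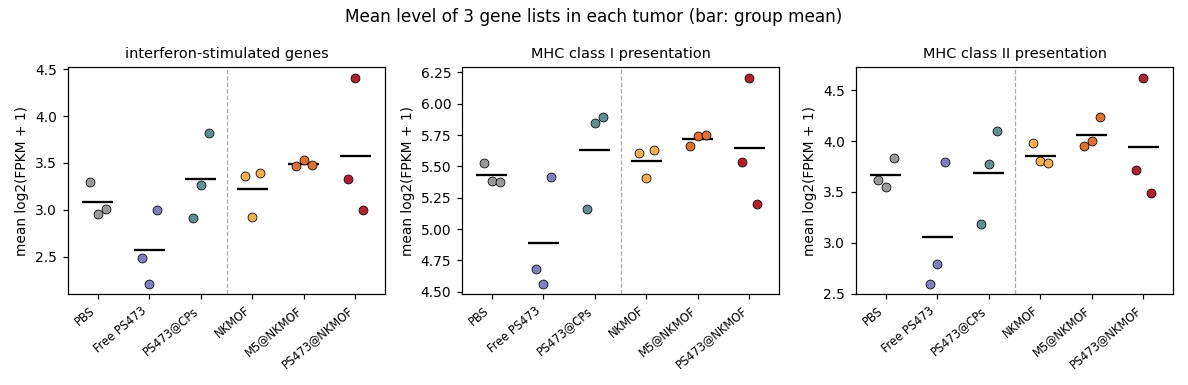
Mean log2(FPKM + 1) of the interferon-stimulated, MHC class I and MHC class II lists in each tumor, by group; the dashed line parts the other tumors (left) from framework tumors (right), and bars are group means of 3. The interferon-stimulated list runs from 2.21 in a Free PS473 tumor to 4.41 in PS473@NKMOF-101-[Mn] replicate 2.

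Genes of MHC class II presentation had a higher mean in framework tumors in all 9 members tested of 12 listed, with a median of 0.56, the highest of the 39 lists with at least 3 genes tested. Of the 9, 0 passed the adjusted test and 7 had an unadjusted p under 0.05, against 2.93% of all genes. Cd74, the invariant chain that guides class II molecules, ran from 123 through 215 to 518 FPKM in framework tumors and from 25.6 through 122 to 289 FPKM in the others. All 9 framework tumors were above the median of the others, and 5 of the others were below every framework tumor. The difference was 1.07 ± 0.33 (95% interval 0.37 to 1.77, adjusted p = 0.900 in limma).

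H2-DMb1, a chain of the peptide-exchange factor of class II, ran from 26.6 through 30.5 to 52.6 FPKM against 14.7 through 22.6 to 37.1 FPKM. Of the others, 7 were below every framework tumor, and the difference was 0.56 ± 0.15. Ciita, the master activator of class II genes, differed by 0.54 ± 0.17 at low levels, with medians of 1.91 FPKM in framework tumors and 1.07 FPKM in the others, and H2-DMa differed by 0.44 ± 0.15. For this list every framework group was above every other group in its median, by 0.19 (empty framework minus PS473@CPs) to 1.26 (empty framework minus Free PS473). Without the Free PS473 group the median was 0.39 with 1 of 9 at an unadjusted p under 0.05. In the tumors with little skin it was 0.82, with single tumors in some groups.

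MHC class I genes, which show peptides of the cell's own proteins to CD8 T cells, had a higher mean in all 20 tested. The median was 0.37, and 9 had an unadjusted p under 0.05, against 2.93% of all genes. The leading members were the immunoproteasome subunits Psmb9 (0.61 ± 0.21) and Psmb10 (0.50 ± 0.18), the proteasome activator Psme1 (0.37 ± 0.13) and the trimming peptidase Erap1 (0.47 ± 0.15). Erap1 ran from 8.81 through 13.8 to 23.1 FPKM in framework tumors and from 6.05 through 9.90 to 14.4 FPKM in the others, with 4 framework tumors above every other tumor. The group scores overlapped widely, at 5.63 ± 0.41 (SD, n = 3) for PS473@CPs and 5.55 ± 0.12 for the empty framework. Without the Free PS473 group the median was 0.14 and 0 of 20 had an unadjusted p under 0.05.

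**Figure D3:**
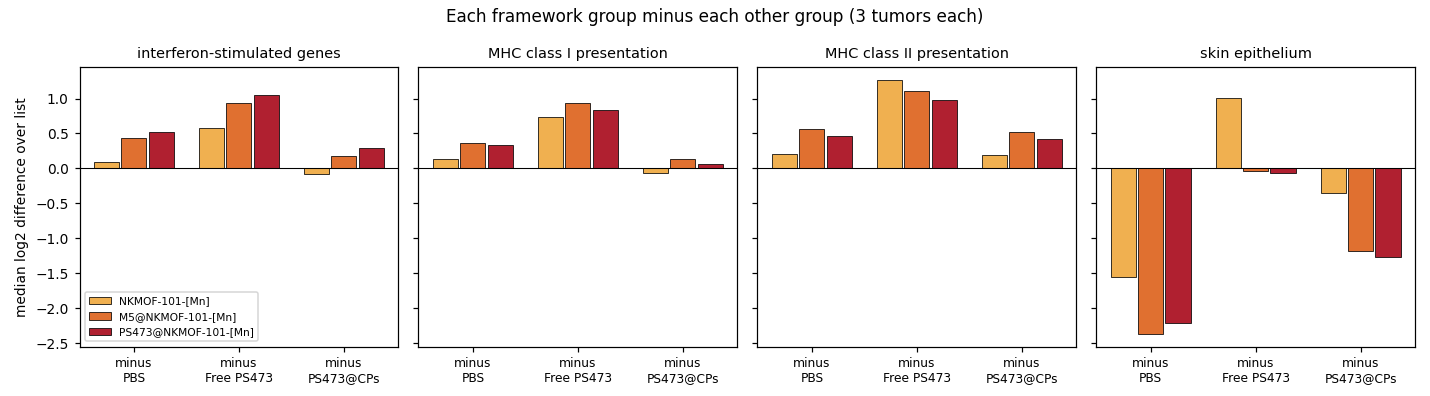
Median log2 difference over 4 gene lists for each of the 3 framework groups (colors) minus each of the 3 other groups (horizontal axis), 3 tumors per group. For the interferon-stimulated genes the bars against Free PS473 are highest, at 0.58 to 1.05, and the empty framework lies at -0.08 against PS473@CPs.

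Markers of the leukocytes that carry class II genes are given beside these values, and their part in the differences was not tested. In bulk tissue, more cells of a type and more RNA per cell cannot be told apart. Of 26 macrophage markers tested (35 listed), 20 had a higher mean in framework tumors, with a median of 0.34. In that direction 4 of the 26 had an unadjusted p under 0.05, against 2.93% of all genes. The count was 17 without Free PS473 replicate 3 (median 0.54) and 2 without replicate 2 (median 0.22) or without the Free PS473 group (median 0.23). It was 1 without the NKMOF-101-[Mn] group, with a median of 0.20. Over all 12357 genes the higher counts in these settings were, in the same order, 407, 416, 188 and 355. The list's mean ran from 2.45 to 3.6 in framework tumors and from 1.97 to 3.53 in the others. Cd68, a lysosomal protein of macrophages, ran from 18.5 through 29.5 to 47.0 FPKM against 9.60 through 19.9 to 29.3 FPKM (0.61 ± 0.20), and 5 framework tumors were above every other tumor. The complement subunit C1qc differed by 0.62 ± 0.27, the Fc receptor Fcgr4 by 0.73 ± 0.32 and Gpnmb, which melanoma cells also express, by 0.21 ± 0.08. The macrophage list was highest in the empty framework, at 3.26 ± 0.32 (SD, n = 3), and lower with PS473, at 2.68 ± 0.30, where the interferon list was highest. PS473@NKMOF-101-[Mn] was above Free PS473 in 20 of the 26 markers, PBS in 10 and PS473@CPs in 3, with medians of 0.20, -0.06 and -0.20. The empty framework was above these groups in 25, 21 and 23, and the M5 framework in 22, 19 and 18.

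Of 24 cytotoxic effector genes 2 reached the limit for testing, and both had a higher mean in framework tumors. The list's mean exceeded the median of the others in all 9 framework tumors. By group it was 0.15 in Free PS473, 0.33 in PBS and 0.49 in PS473@CPs. On the framework side it was 0.45 in the empty framework, below the polymers, 0.55 with M5 and 0.54 with PS473. Gzmb, the granule protease of killer cells, ran from 1.01 through 2.15 to 6.81 FPKM against 0.0773 through 0.763 to 4.04 FPKM (0.65 ± 0.29), and Nkg7, a granule membrane protein, differed by 0.56 ± 0.27. T cell markers were near the limit: 7 of 25 were tested, with a median of 0.15, and Cd8a had medians of 0.845 FPKM in framework tumors and 0.448 FPKM in the others. The T cell list's mean was highest in PS473@CPs, at 0.753, with 0.749 in the empty framework, 0.645 with M5 and 0.683 with PS473. PBS was at 0.603 and Free PS473 at 0.405. Of the 7 markers, the empty, M5 and PS473 frameworks were above PS473@CPs in 4, 2 and 2, PBS in 6, 3 and 5 and Free PS473 in 7, 7 and 6. Complement genes were higher in mean in 16 of 19 tested, with a median of 0.34, led by C4b at 0.66 ± 0.22. Of the 19, 5 had an unadjusted p under 0.05 in that direction, against 2.93% of all genes. That count was 0 without the Free PS473 group or the M5@NKMOF-101-[Mn] group and 12 without Free PS473 replicate 3. PS473@NKMOF-101-[Mn] was above Free PS473 in 14 of the 19, PBS in 9 and PS473@CPs in 4, with medians of 0.39, -0.007 and -0.14. The empty framework was above these groups in 19, 16 and 13, and the M5 framework in 17, 15 and 13. Immune checkpoints were higher in mean in 9 of 10, with a median of 0.14, led by Havcr2, which encodes TIM-3, at 0.36 ± 0.12. Of these 10, PS473@NKMOF-101-[Mn] was above Free PS473 in 6, PBS in 5 and PS473@CPs in 5. The empty framework was above these groups in 9, 9 and 8, and the M5 framework in 8 each.

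Members of the cGAS-STING pathway, the known target of manganese, differed from each other. Sting1, the adaptor, ran from 8.64 through 9.63 to 12.9 FPKM in framework tumors and from 7.40 through 8.20 to 10.8 FPKM in the others. All 9 framework tumors were above the median of the others, and 6 of the others were below every framework tumor. The difference was 0.26 ± 0.07 (95% interval 0.10 to 0.42, and 0.19 to 0.32 over the 37 alternatives), with a two-sided exact permutation p of 0.00531 and an adjusted p of 0.900 in limma.

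Cgas, the sensor upstream of it, ran from 4.76 through 6.13 to 8.14 FPKM against 5.21 through 6.05 to 7.69 FPKM, a difference of -0.01 ± 0.09 (95% interval -0.20 to 0.19) that was above 0 under quantile normalization, at 0.015. Of the 13 pathway genes tested, 8 had a higher mean, with a median of 0.06. In that direction 3 had an unadjusted p under 0.05, against 2.93% of all genes. Without Free PS473 replicate 3 the median was -0.0004 with 6 of 13 above 0, and the count was 1 without PS473@CPs replicate 1, NKMOF-101-[Mn] replicate 3, the Free PS473 group or the NKMOF-101-[Mn] group. Samhd1, a hydrolase of deoxynucleotides that interferon induces, differed by 0.28 ± 0.12, and the kinase Ikbke by 0.16 ± 0.07.

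RNA sensors were higher in mean in 15 of 16 tested, with a median of 0.18. In that direction 5 had an unadjusted p under 0.05, against 2.93% of all genes. Tlr3, the endosomal sensor of double-stranded RNA, differed by 0.31 ± 0.10, and all 9 framework tumors were above the median of the others. Rigi differed by 0.47 ± 0.17, Ifih1 by 0.44 ± 0.16 and Dhx58 by 0.52 ± 0.21. Rigi, Ifih1 and Dhx58 are themselves interferon-stimulated and stand in that list too. Without the Free PS473 group 0 of 16 had an unadjusted p under 0.05.

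Genes that transport or use manganese were near the median of all genes. Of 13 tested (16 listed), 6 had a higher mean, with a median of -0.02. In that direction 1 had an unadjusted p under 0.05, against 2.93% of all genes. That gene was Slc11a1, a divalent metal pump of the macrophage phagosome, which ran from 1.83 through 3.99 to 7.17 FPKM against 0.817 through 2.17 to 3.56 FPKM (0.60 ± 0.21). The part of macrophages in it was not tested. The others with the smallest p were Glul, the manganese-dependent glutamine synthetase (0.14 ± 0.08), Pcx, pyruvate carboxylase (-0.12 ± 0.09), and the transferrin receptor Tfrc (-0.13 ± 0.11).

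Zinc and metallothionein genes gave a median of 0.01 over 15 tested. The zinc exporter Slc30a1 differed by 0.21 ± 0.09, and Mt2 ran from 217 through 321 to 443 FPKM in framework tumors and from 153 through 283 to 415 FPKM in the others (0.22 ± 0.19). Of 17 iron-handling genes, 12 had a higher mean, with a median of 0.04. Of these, 3 had an unadjusted p under 0.05, against 2.93% of all genes. They were the ferrireductase Steap3 (0.23 ± 0.08), the ferroxidase ceruloplasmin Cp (0.24 ± 0.09) and the iron chaperone Pcbp2 (0.14 ± 0.06). Redox defence genes (33 tested, median 0.02), the unfolded protein response (25, median 0.02) and ferroptosis genes (13, median -0.01) were near the median of all genes. Of 13 genes of pyroptosis and necroptosis, 8 had a higher mean, led by Mlkl, the executioner of necroptosis (0.30 ± 0.11), and Zbp1, an interferon-induced sensor upstream of it (0.91 ± 0.35). The median of these 13 was 0.15, and 0.025 without the Free PS473 group. Heat shock genes gave a median of -0.04 over 15, with the inducible chaperone Hspa1b at -0.64 ± 0.27, and 21 targets of TNF and NF-kB gave one of -0.16, with Nfkbiz at -0.56 ± 0.27. For TNF and NF-kB targets the median was 0.25 in the tumors with little skin, and -0.30 and -0.003 without Free PS473 replicates 2 and 3.

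**Figure D4:**
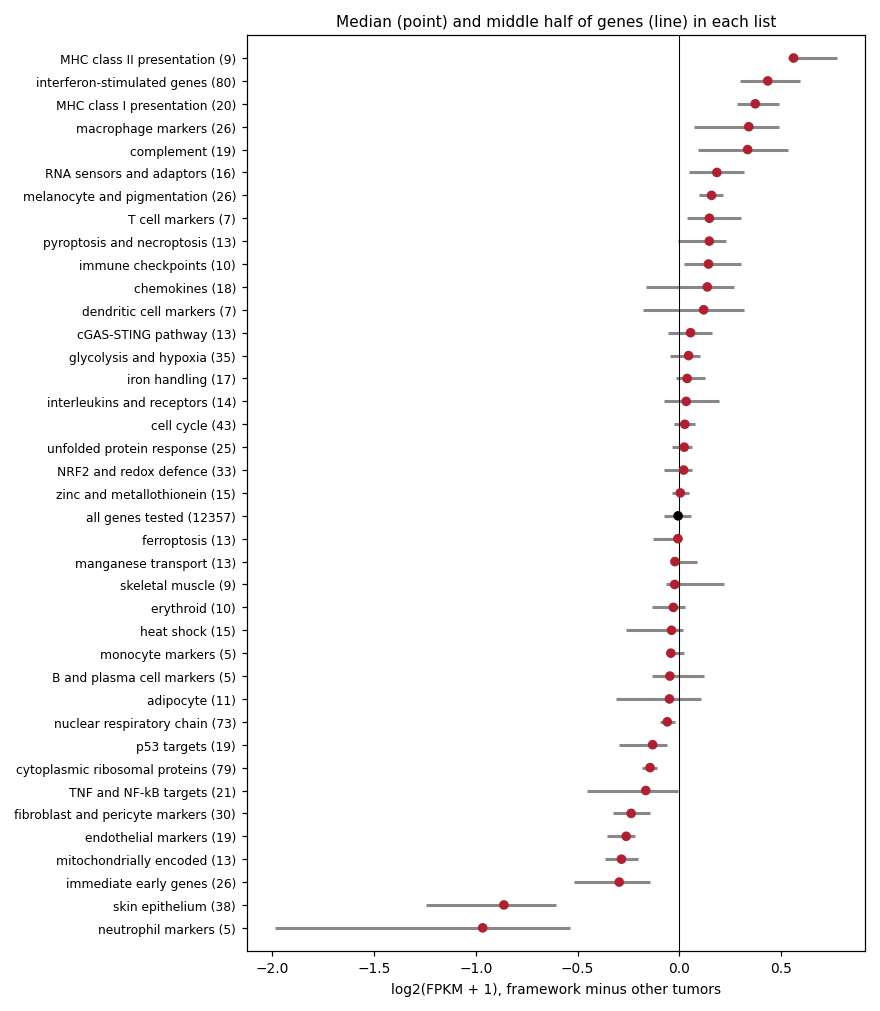
Median difference of framework minus other tumors in log2(FPKM + 1) for each gene list (point) with the range of the middle part of its genes, from the 25th to the 75th percentile (line); the number tested is in brackets and all genes tested are in black. MHC class II presentation lies highest at 0.56. The neutrophil point at -0.97 rests on 5 of 21 markers, and all 21 differed by -0.28.

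The target of the ribozyme, Cd274, ran from 9.74 through 17.0 to 32.9 FPKM in framework tumors and from 11.7 through 12.6 to 24.5 FPKM in the others. The difference was 0.31 ± 0.19 (95% interval -0.11 to 0.72, two-sided exact permutation p = 0.165, adjusted p = 0.900 in limma). Framework tumors held both the lowest and the highest value, and each of these was a PS473@NKMOF-101-[Mn] tumor: replicates 1 to 3 were at 17.0, 32.9 and 9.74 FPKM. With inactive M5 the values were 21.8, 21.0 and 28.2 FPKM. Fewer framework tumors than others received PS473, and its part in the difference was not tested. The cytokine genes were too low to be tested. Tnf had medians of 0.585 FPKM in framework tumors and 0.478 FPKM in the others, and Il6 had 0.178 and 0.428 FPKM.

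Melanocyte genes were slightly higher in mean in framework tumors in 24 of 26, with a median of 0.16 and 3 at an unadjusted p under 0.05, against 2.93% of all genes. That count was 0 without the M5@NKMOF-101-[Mn] group and 11 without the NKMOF-101-[Mn] group, with medians of 0.087 and 0.26, and single tumors left out gave 1 to 10. Pmel, the fibril protein of the melanosome, ran from 1109 through 1482 to 1836 FPKM against 893 through 1093 to 1583 FPKM (0.30 ± 0.12). Met, the receptor of hepatocyte growth factor, differed by 0.53 ± 0.21, and Tyrp1 by 0.22 ± 0.11. Cell cycle genes were near the median of all genes (43 tested, median 0.03).

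On the lower side, neutrophil and skin genes varied widely between tumors. The mean over all 21 neutrophil markers ran from 0.18 through 0.36 to 0.81 in framework tumors and from 0.11 through 0.37 to 1.53 in the others, a difference of -0.28. Of these, 5 reached the expression limit, and Lcn2 (means of 0.469 and 3.95 FPKM) and Mmp9 (0.857 and 3.02 FPKM) did so through the other tumors, so the median of -0.97 over the 5 supports no statement on the list. S100a8, a calcium-binding protein of neutrophils that stressed keratinocytes also make, reached 10.8 FPKM in framework tumors and 252 FPKM in the others, around medians of 0.593 and 0.808 FPKM. Its difference was -2.06 ± 1.22.

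Skin epithelium genes had a lower mean in framework tumors in 36 of 38, with a median of -0.86, and 0 had an unadjusted p under 0.05. Their scores were high in single tumors on each side (5.63 and 4.29 in PBS, 5.52 in PS473@CPs, 4.52 in the empty framework), so the spread within groups exceeded the difference. The median was -0.40 without PS473@CPs replicate 2 and -1.40 without PBS replicate 1. In the tumors with little skin the skin median was 0.04, a value near 0 that the choice of tumors by this same score fixed in advance. Fibroblast and endothelial markers had medians of -0.24 (30 tested) and -0.26 (19 tested), and of 0.50 and 0.30 in those tumors. Without Free PS473 replicate 3 the fibroblast median was 0.01, and without PS473@CPs replicate 2 the endothelial one was -0.10. The framework groups differed: the mean of both lists was highest of all groups in the empty framework, at 3.48 and 2.24. It was lowest with M5, at 2.53 and 1.57. Without the NKMOF-101-[Mn] group the medians were -0.56 and -0.55.

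Ribosomal protein genes had a lower mean in 78 of 79, by a median of -0.14, with 0 at an unadjusted p under 0.05. Rps2 ran from 1096 through 1267 to 1424 FPKM in framework tumors and from 1170 through 1519 to 1792 FPKM in the others (-0.17 ± 0.08). The list's mean was highest in PBS replicate 1 and Free PS473 replicate 3, at 9.35 and 9.29 against 8.55 to 8.96 elsewhere, and without PBS replicate 1 the median difference was -0.06.

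Transcripts of the mitochondrial genome had a lower mean in all 13, with a median of -0.28, and PS473@CPs replicate 2 stood apart at a list mean of 10.6 against at most 8.42 elsewhere. Without it the median was -0.04. ATP8, a subunit of ATP synthase, ran from 18.2 to 59.1 FPKM in framework tumors and reached 1179 FPKM in that tumor. Without the PS473@CPs group the median of the mitochondrially encoded genes was 0.25, and in the PS473-matched groups, which leave out both PS473@CPs and M5@NKMOF-101-[Mn], it was 0.31.

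Immediate early genes, which follow growth factors and also handling of the tissue, had a lower mean in 24 of 26, with a median of -0.30 and 3 at an unadjusted p under 0.05, against 1.63% of all genes. That count was 0 in the PS473-matched groups and 12 without the Free PS473 group. Over all 12357 genes, 159 and 153 were lower at that threshold in these settings. Jun ran from 28.1 through 48.2 to 74.0 FPKM in framework tumors and from 36.8 through 75 to 170 FPKM in the others (-0.67 ± 0.23). None of the framework tumors was above the median of the others. Fosb differed by -0.94 ± 0.35, Jund by -0.28 ± 0.13 and Fos by -0.60 ± 0.28. In the tumors with little skin the median was -0.05. Of 19 p53 targets, 17 had a lower mean, with a median of -0.13, led by Ccng1 (-0.30 ± 0.10).

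**Figure D5:**
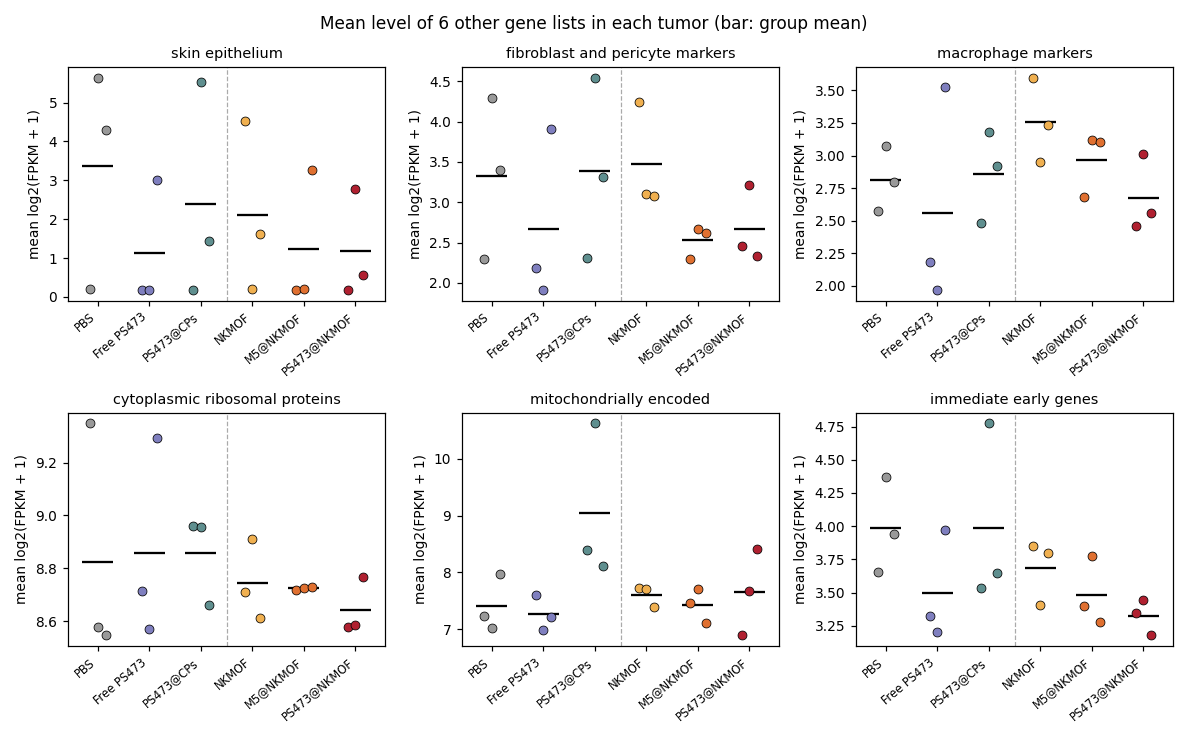
Mean log2(FPKM + 1) of 6 other gene lists in each tumor, by group; the dashed line parts the other tumors (left) from framework tumors (right), and bars are group means of 3. Skin epithelium spreads from 0.18 to 4.52 in framework tumors and from 0.18 to 5.63 in the others, and PS473@CPs replicate 2 stands alone at 10.6 for the mitochondrially encoded genes.

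The smallest p of all genes belonged to Snora57, a small nucleolar RNA that guides pseudouridylation, with a gene length of 150 bases. It ran from 0.845 through 1.36 to 1.79 FPKM in framework tumors and from 1.55 through 2.43 to 4.57 FPKM in the others. Of the framework tumors, 7 were below every other tumor, and 8 of the others were above every framework tumor. The difference was -0.70 ± 0.14 (two-sided exact permutation p = 0.000165, adjusted p = 0.900 in limma). Without PS473@CPs replicate 3, the lowest of the other tumors, it was -0.81 with an adjusted p of 0.0347 in limma, the 1 gene then passing.

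Snord37, a guide of ribose methylation with a length of 53 bases, differed by -0.83 ± 0.25. Both were measured in libraries enriched for poly(A) RNA, which such RNAs lack, and at these lengths few fragments stand behind each value. The other 8 genes with the smallest p on this side differed by -0.41 to -0.18. They include Ftsj1, a tRNA methyltransferase (-0.20 ± 0.05), Rpusd3, a mitochondrial pseudouridine synthase (-0.26 ± 0.07), Armt1 (-0.18 ± 0.05), Tmem38a, a potassium channel of internal membranes (-0.20 ± 0.06), and the unnamed genes Gm16001, C130036L24Rik, Gm14966 and Gm39305.

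The framework groups were then compared among themselves. Of 12357 genes, 0 passed at an adjusted p under 0.05 in limma (0%, smallest adjusted p 1.00), and 193 had an unadjusted p under 0.05 (1.56%). The smallest p belonged to C1rl, a complement-like protease, at 3.22 ± 0.45 FPKM (SD, n = 3) in the empty framework, 5.26 ± 0.76 with M5 and 4.01 ± 0.15 with PS473. Snord89 followed at 7.51 ± 2.09, 1.52 ± 0.68 and 3.12 ± 1.47 FPKM. The next were Eef1akmt4, Pusl1 and Gm23639. Of the interferon-stimulated genes, 1 of 80 had an unadjusted p under 0.05 here.

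Whether the framework difference depends on PS473 was asked as PS473@NKMOF-101-[Mn] minus Free PS473, less NKMOF-101-[Mn] minus PBS. Again 0 genes passed (0%, smallest adjusted p 1.00 in limma), and 331 had an unadjusted p under 0.05 (2.68%), 84 positive and 247 negative. Nes, the intermediate filament nestin, was at 3.30 ± 1.32 FPKM (SD, n = 3) in PBS and 4.51 ± 0.70 in the empty framework, and at 5.05 ± 1.48 in Free PS473 and 2.46 ± 0.16 in PS473@NKMOF-101-[Mn] (-1.17 ± 0.32, SE). Adam19, a metalloprotease, likewise had its higher mean in the empty framework of the pair without PS473 and in Free PS473 of the pair with it, at -0.90 ± 0.25. Gm16617 was at -0.92 ± 0.24, the amino acid transporter subunit Slc7a7 at -0.48 ± 0.13 and Arhgef40 at -0.52 ± 0.15. Of the 80 interferon-stimulated genes, 27 had an unadjusted p under 0.05 in either direction of this contrast, against 2.68% of all genes. Free PS473 is the low group for this list. Unlike the 5 genes above, it leaned to the positive side. PS473@NKMOF-101-[Mn] was above Free PS473 in 79 of 80 by a median of 1.05, and NKMOF-101-[Mn] above PBS in 62 by 0.09.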

How the data were processed

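Total RNA of 18 tumors was enriched for poly(A) RNA and sequenced. The authors deposited FPKM values for 41079 genes with 1 length per gene, mapped to GRCm39 per the submitters' notes, whose aligner and counter are not given in the sources used here. Fragment totals were recovered from the steps of low values. FPKM was transformed to log2(FPKM + 1), and the 12357 genes averaging 1 FPKM or more entered limma 3.58.1 (R 4.3.3), 1 mean per group with a trended prior, adjusted by Benjamini-Hochberg at 0.05. Single genes had two-sided exact permutation tests. A list score is the mean over all listed genes in the table. The named genes were, by rule, the 10 with the smallest p in each direction, Cd274 and the genes the study measured, up to 4 of smallest p per list, and 5 of smallest p in each further comparison. A few other genes (the tissue markers, Cd8a, Ccl5, Cxcl9 and Gbp7 among them) were named from the lists after their values were seen. Some results that these rules name are not reported here. The comparison, lists and rules were chosen with earlier results of these data known. The fit was tested on simulated data. Files of this series hold 0 columns of tumors without a label.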

Additional observations from a re-analysis of the deposited data

Results flagged for a closer look

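Among 136 sets of 9 tumors, 13 held a tumor whose gap to its nearest neighbor exceeded Dixon's 95% critical value, where chance flags about 1 in 20. Values are log2(FPKM + 1), or its mean over a list. PS473@NKMOF-101-[Mn] replicate 2 was the highest framework tumor for 4933412E12Rik (2.15), Isg15 (6.29), interferon-stimulated genes (4.41), RNA sensors (3.12) and cytotoxic effectors (0.974). PS473@NKMOF-101-[Mn] replicate 3 was the lowest for the cGAS-STING pathway (2.00). NKMOF-101-[Mn] replicate 1 was the highest for heat shock genes (5.80) and for monocyte (2.16), mast cell (1.11), fibroblast (4.24) and adipocyte (2.37) markers. Outside the framework, PS473@CPs replicate 3 was the highest for Sting1 (3.57) and PS473@CPs replicate 2 for mitochondrially encoded genes (10.6).

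The unfolded protein response list had the empty framework wholly above PBS and PS473@NKMOF-101-[Mn] wholly below Free PS473. The difference of these differences was -0.34, and it was not tested.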

How the results depend on the processing

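With 3 tumors a group and wide spread within groups, small differences are beyond this design, and depth limits genes near 1 FPKM. A skin score under 1 left single tumors in some groups, so counts of that setting are not given. In the other alternatives the calls at an adjusted p under 0.05 stayed at 0 higher and 0 lower with 2 exceptions. These were without a filter on low values (1 each, Serpina1a and Gm23749, both under 0.1 FPKM in mean) and without PS473@CPs replicate 3 (0 to 1 lower over the tumors left out in turn, Snora57). Without a filter 1 gene passed for the dependence on PS473 (Gm23749) and 3 among the framework groups. At an unadjusted p under 0.05 the counts were 362 and 202, 84 and 247 for the dependence on PS473, and 193 among framework groups. The 362 higher and 202 lower became 627 and 618 without a filter, 677 and 573 with array weights (whose estimation stopped before convergence), 188 higher without the Free PS473 group and 125 and 90 without the M5@NKMOF-101-[Mn] group. The lower count was 385 at a filter of 0.1 FPKM, 361 without the NKMOF-101-[Mn] group and 332 at a skin score under 1. Leaving out 1 tumor in turn gave 219 (without PS473@CPs replicate 1) to 665 (without PS473@CPs replicate 3) higher and 142 (without M5@NKMOF-101-[Mn] replicate 3) to 370 (without PS473@CPs replicate 3) lower. Quantile normalization gave 510 and 168, which raised the share of higher calls from 64.2% to 75.2%. The causes were not tested.

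Over 39 lists and 37 alternatives, 1428 of 1443 medians stayed within the spread between tumors of a group and 16 lists kept 1 sign. Those that moved were neutrophil markers (-1.49 at a pseudocount of 0.1, -1.47 with voom on recovered fragments, 0.15 at a skin score under 1), endothelial markers (0.30) and skeletal muscle (0.58) at a skin score under 1, erythroid genes (-1.15 in PS473-matched groups) and B and plasma cell markers. The last had -0.33 without the Free PS473 group, 0.30 without the polymer group, and -0.65, 0.073 and 0.18 without the empty, the M5 and the PS473 framework group, with 0.51 in PS473-matched groups and -0.19 to 0.18 with 1 tumor left out.

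Replicate numbers did not pair the tumors: 18 of 45 same-number pairs had deviations correlated over 0.1 (-0.73 to 0.724), and 4 of 18 tumors correlated best with their own number. With the replicate number as a block, 0 genes passed and 309 and 217 had an unadjusted p under 0.05.

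Of 97 named genes, 85 kept their direction throughout. Isg20 was at -0.017 with array weights, -0.013 with the skin score as a covariate, -0.17, -0.076 and -0.027 without the polymer, the M5 and the PS473 framework group, -0.25 in PS473-matched groups, -0.14 at a skin score under 1, and -0.13 to 0.12 with 1 tumor left out. Cgas was at 0.015 under quantile normalization, 0.0090 without PBS, 0.041 without the M5 group, 0.025 in PS473-matched groups, and -0.057 to 0.047 with 1 tumor left out. Cxcl10 was at -0.067 without the Free PS473 group and at -0.035 to 0.24 with 1 tumor left out. At a skin score under 1, Lcn2 was at 0.056, S100a9 at 0.10, S100a8 at 0.20, Mmp9 at 0.25, Tgm1 at 0.032, Trp63 at 0.010 and CYTB at 0.014. Tgm1 and Trp63 belong to the list behind that score, so the choice of tumors fixed their values near 0. Without the polymer group and in PS473-matched groups, ND4L was at 0.51 and 0.77, ATP6 at 0.25 and 0.40, and CYTB at 0.096 and 0.17.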
